A study of Mus musculus with 15 samples.

Results

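The Ugt1a locus on mouse chromosome 1 encodes a family of UDP-glucuronosyltransferases, and its RNA was followed in a mouse tubule cell line grown flat or inside 4 different gels. All genes whose symbol starts with Ugt1a were taken, 8 of the 27179 genes in the authors' tables: Ugt1a10, Ugt1a9, Ugt1a7c, Ugt1a6b, Ugt1a6a, Ugt1a5, Ugt1a2 and Ugt1a1. The locus was picked because Ugt1a9 and Ugt1a7c had large fold changes over flat culture in these tables, so the values of the members are given as a description and no test is drawn from them.

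The cells were induced renal tubular epithelial cells (iRECs), mouse fibroblasts converted to a tubule-like epithelium by forcing on kidney transcription factors such as Pax8, Emx2 and Hnf4a, a conversion that every group carries. There were 15 libraries in 5 groups of 3. Cells on flat plates (2D) were the control. They were compared with cells placed by hand in 3 gels, Matrigel (extracted basement membrane), Fibrin (the protein mesh of a blood clot) and Collagen I (a fibril-forming collagen), and with cells that an inkjet bioprinter put into fibrin with collagen I (Printed). The printed cells therefore differed from the others both in the gel and in the way they were placed, and the label of those cultures names both gel components while the name of their table mentions only collagen. The 3 replicates of each group were experiments begun at passages 35, 48 and 53 of a single line, all groups of a replicate came from 1 pool of cells, all were kept in renal epithelial growth medium, and RNA was taken on day 7. Spread between replicates is thus spread between runs of 1 line and not between animals.

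UDP-glucuronosyltransferases sit in the membrane of the endoplasmic reticulum and join glucuronic acid, taken from UDP-glucuronate, to bilirubin, steroids, drugs and phenols, which makes these compounds soluble enough to leave in bile or urine. In the Ugt1a locus every gene has a promoter and a first exon of its own, spliced onto a common run of downstream exons. The first exon encodes the part that binds the substrate and the common exons encode the part that binds UDP-glucuronate. In kidney the enzymes act mainly in tubule epithelium, where they clear drugs and their metabolites.

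On build GRCm38 the locus lies on the + strand of chromosome 1. The own first exon of Ugt1a10 is the most upstream (88055411 to 88056336), followed by those of Ugt1a9 (88070800 to 88071678), Ugt1a7c (88095064 to 88095978), Ugt1a6b (88103252 to 88107799, 2 own exons), Ugt1a6a (88134809 to 88139331, 2 own exons), Ugt1a5 (88166012 to 88166903), Ugt1a2 (88200601 to 88201500) and Ugt1a1 (88211959 to 88212871). Ugt1a8, whose first exon lies between those of Ugt1a9 and Ugt1a7c, was not analysed here. The 4 shared exons span 88215044 to 88218997 and hold 1311 bases, and the own exons of the members hold 879 to 986 bases. For reads in the shared exons, the way they were assigned is not given in the sources used here.

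Printed here for 5 members are the 250 bases before the RefSeq start of transcription (GRCm38.p6), because Ugt1a10 and Ugt1a9 were both highest in fibrin, Ugt1a7c was above 2D in every gel, Ugt1a6a followed at low level and Ugt1a1 took another course. The windows are chr1:88055161-88055410, chr1:88070529-88070778, chr1:88094751-88095000, chr1:88134559-88134808 and chr1:88211709-88211958 in the order printed, 5′ to 3′ on the + strand, and the table of promoters matched 7 of the 8 members, all but Ugt1a6b. Capitals mark the octamer ATGCAAAT, a motif bound by POU factors.
Ugt1a10: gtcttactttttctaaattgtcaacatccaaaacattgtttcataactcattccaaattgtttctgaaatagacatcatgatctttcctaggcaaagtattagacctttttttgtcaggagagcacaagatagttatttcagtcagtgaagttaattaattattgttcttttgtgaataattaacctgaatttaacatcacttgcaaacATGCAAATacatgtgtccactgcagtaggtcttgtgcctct
Ugt1a9: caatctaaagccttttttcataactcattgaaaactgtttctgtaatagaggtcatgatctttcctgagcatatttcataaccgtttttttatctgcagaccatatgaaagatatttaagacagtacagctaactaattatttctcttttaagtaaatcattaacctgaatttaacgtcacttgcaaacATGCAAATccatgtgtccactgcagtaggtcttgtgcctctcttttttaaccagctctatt
Ugt1a7c: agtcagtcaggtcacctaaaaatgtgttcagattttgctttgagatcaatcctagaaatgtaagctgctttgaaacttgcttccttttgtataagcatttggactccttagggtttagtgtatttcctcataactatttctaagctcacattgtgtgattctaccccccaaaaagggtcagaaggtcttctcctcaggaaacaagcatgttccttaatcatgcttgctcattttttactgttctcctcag
Ugt1a6a: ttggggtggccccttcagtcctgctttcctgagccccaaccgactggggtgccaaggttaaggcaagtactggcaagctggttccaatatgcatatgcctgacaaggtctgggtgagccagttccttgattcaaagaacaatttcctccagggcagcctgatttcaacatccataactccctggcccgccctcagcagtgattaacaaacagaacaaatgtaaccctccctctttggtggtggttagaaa
Ugt1a1: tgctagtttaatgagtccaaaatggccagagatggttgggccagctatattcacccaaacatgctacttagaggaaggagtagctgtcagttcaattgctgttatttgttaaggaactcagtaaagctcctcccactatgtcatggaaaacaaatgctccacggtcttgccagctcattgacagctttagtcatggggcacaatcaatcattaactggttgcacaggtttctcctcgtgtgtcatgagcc

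Aligned to each other, the windows of Ugt1a10 and Ugt1a9 share 188 bases, 75.2% of the window, with an identical run of 32 bases, and both carry 1 octamer, 41 and 61 bases before the start. The octamer, in either orientation, occurs in 1.6% of the 32851 mouse promoter windows of this length and in none of the other 5 members with a window. In the window of Ugt1a7c the core of the xenobiotic response element, GCGTG, to which the aryl hydrocarbon receptor AhR binds, was not found on either strand. That core was found in Ugt1a5 alone among the 7 members, against 28.2% of all windows. A match in these letters is a description of the sequence and not a bound site.

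The deposited tables give a mean level and a fold change per gene but no value per library. Each mean level is an average of reads divided by the size factors of 6 libraries, printed with enough digits that the whole number of reads in each library could be worked out from it, and these recovered reads are the per-library values below. The 3 libraries of a group are called A, B and C by falling size factor, which cannot be tied to a passage, and the same letter in 2 groups does not mean the same passage. Size factors ran from 0.815 to 1.228, and levels are given as normalised reads, the reads divided by the size factor. In 400 of 400 low genes checked, each table on its own gave the same 2D reads. Read numbers were even for 62.51% of nonzero counts, so single reads were not always separate molecules and the spread between libraries, not counting error, is given as the error.

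The identity of the cells was checked against markers. Of 13 markers of tubule epithelium, 9 had a base mean (the authors' mean normalised level over the 6 libraries of a comparison) of at least 10 in each deposited table, led by Cdh16, the kidney cadherin, at 47160 to 64780. Some markers of single segments were near 0. Slc34a1, the proximal phosphate transporter, reached at most 2.71 and Aqp2, the water channel of the collecting duct, at most 0.333. Cubn and Lrp2, also markers of the proximal tubule, were among the 9. Called among these markers were Cdh1, Epcam, Cubn and Lrp2 (higher in Matrigel), Pax8 (lower in fibrin and collagen I) and Krt8 (lower in collagen I). Pax8 is also among the factors forced on, so its level is no check of identity. Reads from its introduced copy cannot be told apart from those of the cell's own gene. Liver and gut also express Ugt1a genes. The 7 hepatocyte markers summed to 47.7 to 100.2, with Cyp2e1 at 0 to 0.333. Of these, Fgb was called higher in fibrin and Alb in collagen I, and Ttr held 200, 229 and 50 reads in Matrigel against 10, 10 and 0 in 2D. The 6 intestinal markers summed to 11730 to 13680, nearly all of it Vil1, a brush border gene that tubule cells also express, with Cdx2 at 1.33 or less, and Lgr5 was called higher in Matrigel and collagen I. The 7 fibroblast markers summed to 178 to 280.3, with Col1a1 called lower in fibrin and collagen I and Pdgfra in fibrin. Matrigel library B alone held 148 reads of Col1a2 and 92 of Col3a1, against 6 or fewer elsewhere. The 5 immune markers summed to 329 to 946, nearly all Cd68, which was called higher in the printed cultures, with Cd3e at 0. The part of these markers in the results was not tested.

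Ugt1a9, whose human counterpart conjugates phenolic drugs such as propofol in liver and kidney, showed the largest difference. In 2D, libraries A, B and C held 2, 8 and 1 reads. In fibrin they held 473, 1043 and 591 reads. These are 3.62 ± 3.80 against 747 ± 345 normalised reads (SD, n = 3), a 206-fold ratio of means, and the lowest fibrin library was far above the highest 2D library. The 2D mean rests on few reads: without 2D library B the ratio is 523-fold. In the authors' deposited table for fibrin the log2 fold change is 5.68 ± 0.32 (SE), a 51.2-fold difference and the highest among the genes there whose base mean reached 100.

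In the other gels Ugt1a9 stayed low. Matrigel libraries held 35, 14 and 18 reads (22.3 ± 9.995 normalised reads, SD, n = 3), all above 2D. Collagen I held 22, 6 and 12 reads (14.6 ± 8.19) and the printed cultures 1, 29 and 4 (11.3 ± 15.4), and both overlapped 2D. The ratio for the printed cultures, 3.13, rests on library B and is 0.685 without it. Although fibrin is part of the printed gel, the highest printed library held 29 reads of Ugt1a9 against 473 in the lowest fibrin library. In the authors' deposited tables the log2 fold changes of Ugt1a9 in these gels are 0.62 ± 0.28 (SE) in Matrigel, 0.57 ± 0.38 in collagen I and 0.22 ± 0.23 in the printed cultures. Deposited folds were closer to 0 than ratios of recovered means in all 31 member values with a ratio.

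Ugt1a10, whose human counterpart acts mostly in the gut, lies just upstream of Ugt1a9 and was also highest in fibrin. No read was recovered in the 3 libraries in 2D. Fibrin held 21, 122 and 37 reads (64.4 ± 59.1 normalised reads, SD, n = 3). With 2D set to 3 reads over the group this is 65.3-fold higher, and 31.3-fold higher without fibrin library B. The setting gives no firm lower bound, since single reads were not always separate molecules. Matrigel held 23, 6 and 6 reads (11.5 ± 9.10, 11.7-fold at that setting, or 6.34-fold without library A), collagen I 2, 0 and 6, and the printed cultures 1, 1 and 8. Fibrin, Matrigel and the printed cultures thus lay above 2D in every library, the last with 1 read in 2 of 3 libraries, and 1 collagen I library was at 0. The authors' deposited table for fibrin gives a log2 fold change of 2.45 ± 0.40 (SE), and it was 0.41 ± 0.21 or less in the other deposited tables. The value of 0.41 is that of Matrigel, with 23, 6 and 6 reads against none in 2D. A small deposited fold with a small SE thus does not show that a gene of few reads changed little.

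The own exons of Ugt1a9 and Ugt1a10 are 91.6% identical, with a longest identical run of 83 bases, so short reads may not always tell them apart. In fibrin the reads of Ugt1a10 were 4.44%, 11.7% and 6.26% of those of Ugt1a9, and in Matrigel 65.7%, 42.9% and 33.3%. The ratios of these 2 groups do not overlap. On few reads, collagen I was at 9.09%, 0% and 50% and the printed cultures at 100%, 3.45% and 200%, and both overlapped fibrin. What part of the Ugt1a10 reads came from Ugt1a9 was not tested.

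**Figure D1:**
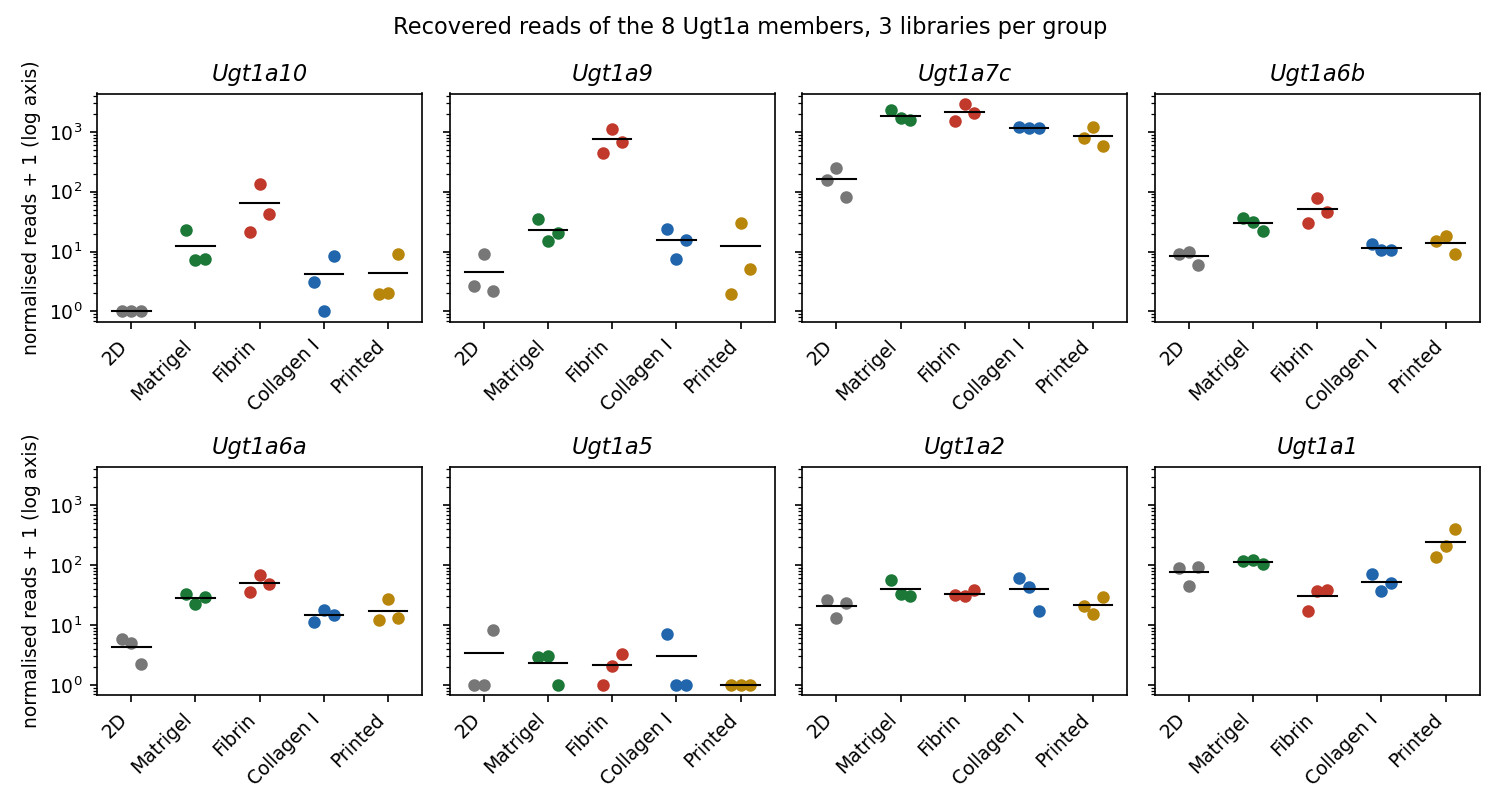
Normalised reads plus 1 on a log axis for each Ugt1a member in 5 groups; each point is 1 library (A, B and C from left to right) and each line the mean of 3. Ugt1a9 stands at 448 to 1125 normalised reads in fibrin against 8.01 or less in 2D, while Ugt1a7c is above 2D in all 4 gels.

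Ugt1a7c had the highest mean of the members in every group and was the only one that the authors' test called higher in all 4 comparisons. In 2D it held 189, 243 and 66 reads (159 ± 81.2 normalised reads, SD, n = 3). Fibrin held 1606, 2721 and 1815 reads (2170 ± 713), a 13.6-fold ratio of means. Matrigel held 2380, 1693 and 1461 reads (1852 ± 376, 11.6-fold, and 12.04-fold without library B). Fibrin and Matrigel overlapped each other, and every library of both lay above every library in 2D.

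Ugt1a7c was also above 2D in the remaining gels. Collagen I held 1179, 1093 and 930 reads (1174 ± 41.1 normalised reads, SD, n = 3; 7.37-fold) and the printed cultures 841, 1187 and 585 (856 ± 306; 5.37-fold), and these 2 groups overlapped. Log2 fold changes in the authors' deposited tables are 3.46 ± 0.23 (SE) in fibrin, 2.82 ± 0.26 in Matrigel, 2.56 ± 0.28 in collagen I and 1.67 ± 0.30 in the printed cultures.

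The gene model of Ugt1a7c bears on its level. In the GENCODE annotation its last exon runs to 88220002, and 998 bases of that tail belong to no other member's main transcript, while in RefSeq 7 of the 8 members end at the same base. With the first kind of annotation, tail reads of any member would count as Ugt1a7c. The authors' tables name genes by number (394432 for Ugt1a7c), as RefSeq does, and not by the Ensembl identifiers of GENCODE. Which annotation the authors used for counting is not given in the sources used here, and the part of the tail was not tested. Ugt1a7c was 56.2 ± 18.9% of the summed normalised reads of the 8 members in 2D (SD, n = 3), 88.3 ± 0.18% in Matrigel, 69.7 ± 2.88% in fibrin, 89.8 ± 2.50% in collagen I and 72.6 ± 14.1% in the printed cultures. The 2D libraries ran from 38.4% to 75.9%, which overlaps fibrin and the printed cultures.

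Ugt1a6a and Ugt1a6b, whose human counterpart conjugates small flat phenols such as paracetamol, were low in 2D. Ugt1a6a held 6, 4 and 1 reads there (3.37 ± 1.91 normalised reads, SD, n = 3), 37, 63 and 42 in fibrin (50.2 ± 16.6; 14.9-fold), 34, 21 and 27 in Matrigel (27.6 ± 5.71; 8.18-fold), 10, 16 and 11 in collagen I (13.6 ± 3.34; 4.04-fold) and 12, 26 and 12 in the printed cultures (16.5 ± 8.30; 4.88-fold). Every gel library was above every 2D library. Fibrin was also above Matrigel in every library.

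Ugt1a6b held 10, 9 and 4 reads in 2D (7.35 ± 2.16 normalised reads, SD, n = 3), 31, 71 and 39 in fibrin (50.02 ± 24.1; 6.80-fold) and 37, 30 and 20 in Matrigel (29.1 ± 7.12; 3.96-fold). Collagen I held 12, 9 and 8 (10.6 ± 1.58), barely above 2D, and the printed cultures 15, 17 and 8 (13.1 ± 4.59), which overlapped it. The own exons of both genes are 97.4% identical with an identical run of 265 bases, so the split of reads between them is uncertain. Ugt1a6a took 20% to 37.5% of the reads of the pair in the 2D libraries and 41.2% to 64.0% in the 12 gel libraries.

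Ugt1a1, the only enzyme of the family with a major part in clearing bilirubin, went opposite ways. In 2D it held 111, 44 and 76 reads (75.9 ± 27.6 normalised reads, SD, n = 3). In the printed cultures it held 144, 204 and 393 (245 ± 134), a 3.23-fold ratio with all libraries above 2D. In fibrin it held 17, 33 and 33 (29.7 ± 11.8), a ratio of 0.391 with all libraries below 2D. Where Ugt1a9 was highest, Ugt1a1 was thus lowest.

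Matrigel held 122, 119 and 98 reads of Ugt1a1 (114 ± 8.40 normalised reads, SD, n = 3), just above 2D, and collagen I 69, 34 and 40 (52.2 ± 17.8), overlapping 2D. Log2 fold changes in the authors' deposited tables are 0.99 ± 0.32 (SE) in the printed cultures, 0.44 ± 0.29 in Matrigel, -0.37 ± 0.38 in collagen I and -0.86 ± 0.38 in fibrin, and none of them passed the authors' adjusted p of 0.05.

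Ugt1a2 and Ugt1a5 differed little. Ugt1a2 held 31, 12 and 18 reads in 2D (19.8 ± 6.92 normalised reads, SD, n = 3), 57, 32 and 28 in Matrigel (39.0 ± 13.5) and 33, 27 and 33 in fibrin (32.6 ± 4.27), both above 2D, and 57, 40 and 13 in collagen I and 21, 14 and 28 in the printed cultures, both overlapping it. Ugt1a5 was at the limit of detection: 0, 0 and 6 reads in 2D, 2, 2 and 0 in Matrigel, 0, 1 and 2 in fibrin, 6, 0 and 0 in collagen I, and none in the printed cultures. A group total of 0 allows for 3 reads, or more where reads are not separate molecules, so no order can be read from Ugt1a5.

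**Figure D2:**
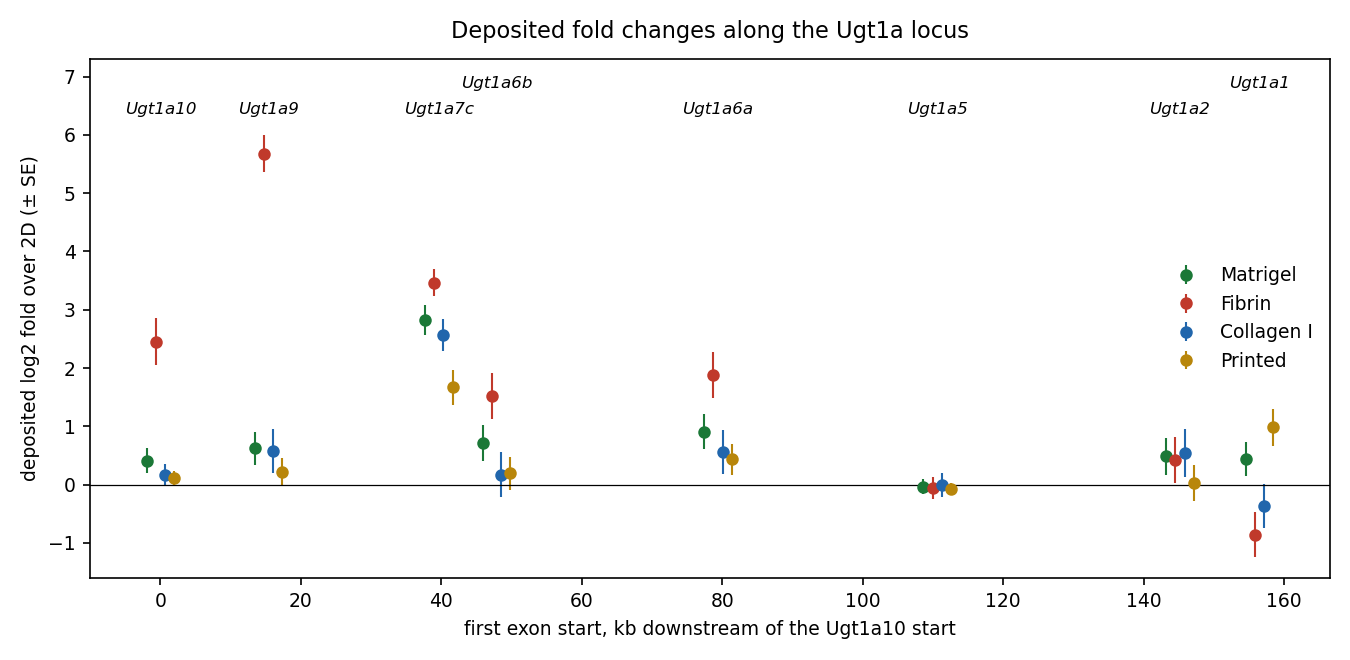
Log2 fold change over 2D (± SE) from the authors' deposited tables for each member, placed by the distance in kb of its first exon from that of Ugt1a10; colours are the 4 gels. Fibrin is highest at Ugt1a10, Ugt1a9, Ugt1a7c, Ugt1a6b and Ugt1a6a and lowest at Ugt1a1, 157 kb downstream. These folds are closer to 0 than the ratios of recovered means.

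Counted over the locus, the authors' adjusted p of under 0.05 called 5 of 8 members higher in fibrin (Ugt1a10, Ugt1a9, Ugt1a7c, Ugt1a6b and Ugt1a6a), where 5.19% of all genes with an adjusted p were called higher. It called 2 in Matrigel (Ugt1a7c and Ugt1a6a; 4.03% of all genes), 1 in collagen I (Ugt1a7c; 6.51%) and 1 in the printed cultures (Ugt1a7c; 2.51%), and 0 members lower in any comparison by DESeq2, where 1, Ugt1a1 in fibrin, was lower at an unadjusted p under 0.05. Since the locus was chosen on these comparisons, nothing is read from the counts. The number of members with an adjusted p was 7 in fibrin, 6 in Matrigel, 3 in collagen I and 6 in the printed cultures, because the authors' tables give none for genes of low level.

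In the recovered reads, 7 members lay above all 2D libraries in Matrigel, against 7.09% of all genes with recovered reads, 6 in fibrin (10.3%), 3 in collagen I (8.57%) and 4 in the printed cultures (6.7%). Ugt1a1 in fibrin was the single member below all 2D libraries. Of all genes, 10.2% lay below in fibrin, 7.9% in Matrigel, 10.6% in collagen I and 6.91% in the printed cultures. The median log2 fold change of the 8 members in the deposited tables was 1.70 in fibrin, 0.56 in Matrigel, 0.36 in collagen I and 0.20 in the printed cultures, beside medians over all genes between -0.01 and 0.01. The member folds in these medians are closer to 0 than the ratios of recovered means. Differences between gels were not tested, since the locus was chosen on these values.

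The makeup of the locus differed between gels even with Ugt1a7c set aside. Of the normalised reads of the other 7 members, Ugt1a1 made up 66.1 ± 7.82% in 2D (SD, n = 3), 77.0 ± 8.67% in the printed cultures, 47.4 ± 7.18% in Matrigel, 38.5 ± 6.04% in collagen I and 3.15 ± 0.97% in fibrin. Ugt1a9 made up 76.7 ± 0.61% in fibrin, 10.5 ± 4.15% in collagen I, 8.89 ± 2.53% in Matrigel, 4.19 ± 5.37% in 2D and 3.79 ± 5.35% in the printed cultures. The share of Ugt1a9 in fibrin varied little although its level ran from 448 to 1125 normalised reads over the fibrin libraries.

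**Figure D3:**
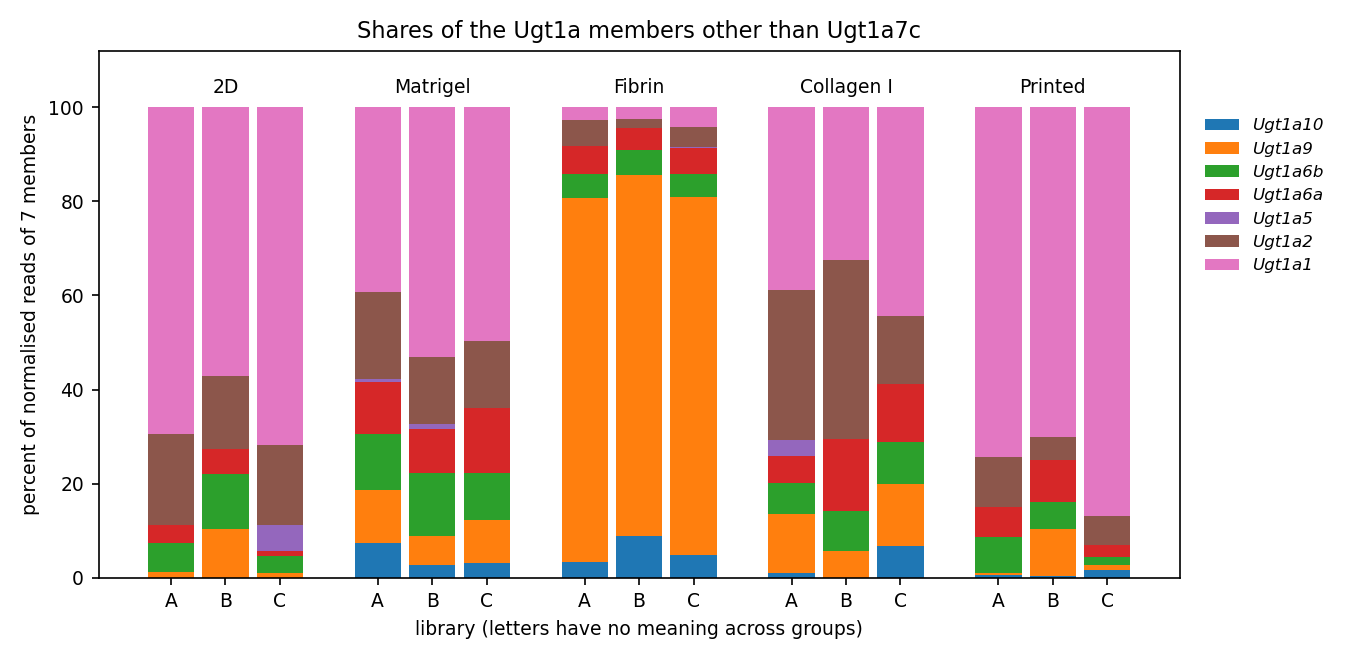
Percent of the summed normalised reads of the 7 members other than Ugt1a7c, 1 bar per library. Ugt1a9 fills 76.7 ± 0.61% of the bar in fibrin and Ugt1a1 66.1 ± 7.82% in 2D and 77.0 ± 8.67% in the printed cultures (SD, n = 3).

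Per kb of own exon, the order in 2D was Ugt1a7c (174 ± 88.8 normalised reads per kb, SD, n = 3), Ugt1a1 (83.1 ± 30.3) and Ugt1a2 (22.0 ± 7.69), then Ugt1a6b (7.46 ± 2.19), Ugt1a9 (4.12 ± 4.33), Ugt1a6a (3.42 ± 1.94) and Ugt1a5 (2.75 ± 4.77), with Ugt1a10 at 0. From Ugt1a6b to Ugt1a5 neighbours overlapped within their spread. Ugt1a7c and Ugt1a1 overlapped within their spread, and with the 998-base tail counted in its length Ugt1a7c would be at 83.3 ± 42.5 per kb. In fibrin the order was Ugt1a7c (2371 ± 779), Ugt1a9 (850 ± 392.4), Ugt1a10 (69.6 ± 63.9), Ugt1a6a (50.9 ± 16.8), Ugt1a6b (50.7 ± 24.5), Ugt1a2 (36.2 ± 4.74), Ugt1a1 (32.5 ± 12.9) and Ugt1a5 (1.25 ± 1.27). With the tail in its length Ugt1a7c would be at 1134 ± 372.7 per kb in fibrin, which overlaps Ugt1a9. From Ugt1a10 to Ugt1a1 neighbours in that order did not differ beyond their spread.

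In the other gels the order per kb was led by Ugt1a7c (2025 ± 411 in Matrigel, 1283 ± 44.9 in collagen I, 936 ± 334 in the printed cultures), Ugt1a1 (125 ± 9.20, 57.2 ± 19.5 and 268 ± 147) and Ugt1a2 (43.3 ± 15.03, 43.5 ± 24.1 and 22.9 ± 7.87; SD, n = 3), as in 2D. The spreads of Ugt1a1 and Ugt1a2 overlap in collagen I, as do those of Ugt1a2 and the gene next in order in Matrigel (Ugt1a6b, 29.5 ± 7.22) and in the printed cultures (Ugt1a6a, 16.7 ± 8.42). The sum over all 8 members was 272 ± 55.6 normalised reads in 2D, 1166 ± 275 in the printed cultures, 1309 ± 82.5 in collagen I, 2097 ± 422 in Matrigel and 3145 ± 1164 in fibrin. In bulk RNA, more cells that express a gene and more RNA per cell cannot be told apart.

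Members shared their highest library in some groups and not in others. Library A was the highest for 6 of 8 members in Matrigel and for 6 in collagen I, and library B for 5 in fibrin, where A was the lowest for 7. In 2D, libraries A, B and C were counted highest for 3, 3 and 2 members, and in the printed cultures for 1, 4 and 3. Both counts for library A include a tie at 0 reads in all libraries, Ugt1a10 in 2D and Ugt1a5 in the printed cultures. The 2D library B was highest for Ugt1a9 and Ugt1a7c. That library also held 189 reads of Ccl2, a chemokine gene looked at after its values were seen, against 10 and 0 in A and C. Ccl2 held 918, 749 and 1046 reads in fibrin, and 53, 160 and 18 in collagen I. Other genes above 2D in every fibrin library differed in this. In 2D, Ehf held 46, 185 and 38 reads, Anxa13 101, 60 and 23, and Alcam 289, 236 and 262. The part of library B in the 2D levels was not tested.

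Genes around the locus were also measured. Within 250 kb, 9 other annotated genes were in the tables, and 5 had an adjusted p in each comparison. Of these, 0 were called by DESeq2 in the 4 comparisons, and at an unadjusted p under 0.05 only Dgkd, a lipid kinase gene, was lower, in collagen I. With 0.675% to 6.51% of all genes called in a given direction per comparison, 0 of 5 is near the share over all genes. Usp40, a ubiquitin protease gene 46.8 kb upstream, and Hjurp, a centromere chaperone gene 38.9 kb downstream, had base means of 749 or more in the authors' deposited tables. Their log2 fold changes there were 0.33 ± 0.22 and 0.26 ± 0.25 (SE) in fibrin, and between -0.01 and 0.12 in the other gels. Mroh2a, the nearest gene downstream, was at 0.40 ± 0.40 in the deposited table for fibrin, and Dnajb3, which lies inside the locus between Ugt1a2 and Ugt1a1, had base means of 0.328 to 2.36 in the deposited tables.

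Genes of glucuronidation and of related processes, named pathway genes here, were followed in 8 lists with 118 genes in the tables. The lists also hold targets of the sensors NRF2 and AhR, regulators, sulfation genes and haem genes. In Matrigel 27 of 85 with an adjusted p were called higher and 0 lower (2 at an unadjusted p under 0.05 by DESeq2), against 4.03% of all genes higher and 2.32% lower. In collagen I 27 of 85 were higher and 0 lower (2 unadjusted; 6.51% and 4.65% of all genes), in the printed cultures 18 of 88 higher and 0 lower (1 unadjusted; 2.51% and 0.675%), and in fibrin 12 of 89 higher and 1 lower (5.19% and 3.11%). Fibrin, where most Ugt1a members were called, had the lowest count of called pathway genes at this threshold, 13, but tied with Matrigel at 7 under a minimum absolute log2 fold of 1 and with collagen I at 6 under an empirical null. Of the genes called higher, 17 in Matrigel, 16 in collagen I, 11 in the printed cultures and 7 in fibrin were NRF2 targets. The lists are described by counts, each to be read beside these shares over all genes, and the difference between gels was not tested.

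Among genes of cofactor supply, only Ugdh was called in Matrigel, collagen I and the printed cultures alike, and the difference from fibrin was not tested. Ugdh, the enzyme that makes UDP-glucuronate, rose by 1.37 ± 0.23 on the log2 scale (SE) in the authors' deposited table for collagen I, by 1.06 ± 0.22 in that of the printed cultures and by 0.82 ± 0.24 in that of Matrigel, with adjusted p of 5.33e-07, 0.000286 and 0.0128. For fibrin the deposited value was 0.46 ± 0.27 (adjusted p = 0.363). Of 13 genes of supply and transport with an adjusted p, 4 rose in the printed cultures, 2 in collagen I, 1 in Matrigel and 0 in fibrin by DESeq2 (1 at an unadjusted p under 0.05). Of all genes, 2.51%, 6.51%, 4.03% and 5.19% were called higher in that order. With so few genes, 0 to 2 of 13 are near that share. Median log2 fold changes over the list were 0.38, -0.01, 0.11 and -0.02. Besides Ugdh, those called were Pgm2, Hk1 and Ugp2, which turn glucose towards UDP-glucose, in the printed cultures. In collagen I it was Entpd5, a nucleotidase of the endoplasmic reticulum (0.92 ± 0.22 in the deposited table, adjusted p = 0.000752).

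Of 13 other UDP-glycosyltransferase genes, 3 or 4 per table had an adjusted p, and the authors' deposited tables call 1 in all, Ugt2b34 in Matrigel, at 0.77 ± 0.26 on the log2 scale (SE; adjusted p = 0.0492). It held 404, 342 and 152 reads in Matrigel against 150, 96 and 192 in 2D, which overlap. Its deposited value in fibrin was -0.68 ± 0.37 (adjusted p = 0.315), with 50, 132 and 36 reads. Ugt2b35 held 8, 12 and 10 reads in 2D, and lay above it in Matrigel (46, 70 and 20) and in the printed cultures (22, 114 and 24), with adjusted p of 0.0713 and 0.136 in the authors' deposited tables. Of genes for cleavage and export of glucuronides, 3 of 10 rose in Matrigel and in the printed cultures, 2 in collagen I and 0 in fibrin by DESeq2 (also 0 at an unadjusted p under 0.05). The highest were Abcc1, an export pump for conjugates, at 0.86 ± 0.20 in the deposited table for Matrigel (adjusted p = 0.000688), and Abcb1a, a drug efflux pump, at 1.12 ± 0.37 in collagen I (adjusted p = 0.0279) and 1.25 ± 0.32 in the printed cultures (adjusted p = 0.00542).

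Target genes of NRF2, the sensor of oxidants and electrophiles that is a known activator of Ugt1a genes, were called higher in 17 of 22 in Matrigel, 16 in collagen I, 11 in the printed cultures and 7 in fibrin, and 0 were called lower, also at an unadjusted p under 0.05 (DESeq2). The median log2 fold change over the list in the deposited tables was 0.76, 0.93, 0.74 and 0.47 in that order. Nqo1, a quinone reductase and also a target of AhR, rose by 2.39 ± 0.23 (SE) in collagen I, 1.94 ± 0.18 in Matrigel, 1.40 ± 0.21 in the printed cultures and 1.12 ± 0.24 in fibrin in the authors' deposited tables, with adjusted p of 1.01e-21, 2.50e-24, 2.62e-08 and 0.000104. Gsta4, a glutathione transferase, was the list's highest in the deposited tables for collagen I (2.50 ± 0.25, adjusted p = 3.05e-20), fibrin (1.504 ± 0.28, adjusted p = 6.86e-06) and the printed cultures (1.64 ± 0.23, adjusted p = 1.86e-09). The median of the list was lowest in fibrin, where 14 of its genes were higher at an unadjusted p under 0.05 (DESeq2). Ugt1a7c and Ugt1a9 had their highest values in fibrin, and the part of NRF2 in them was not tested.

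**Figure D4:**
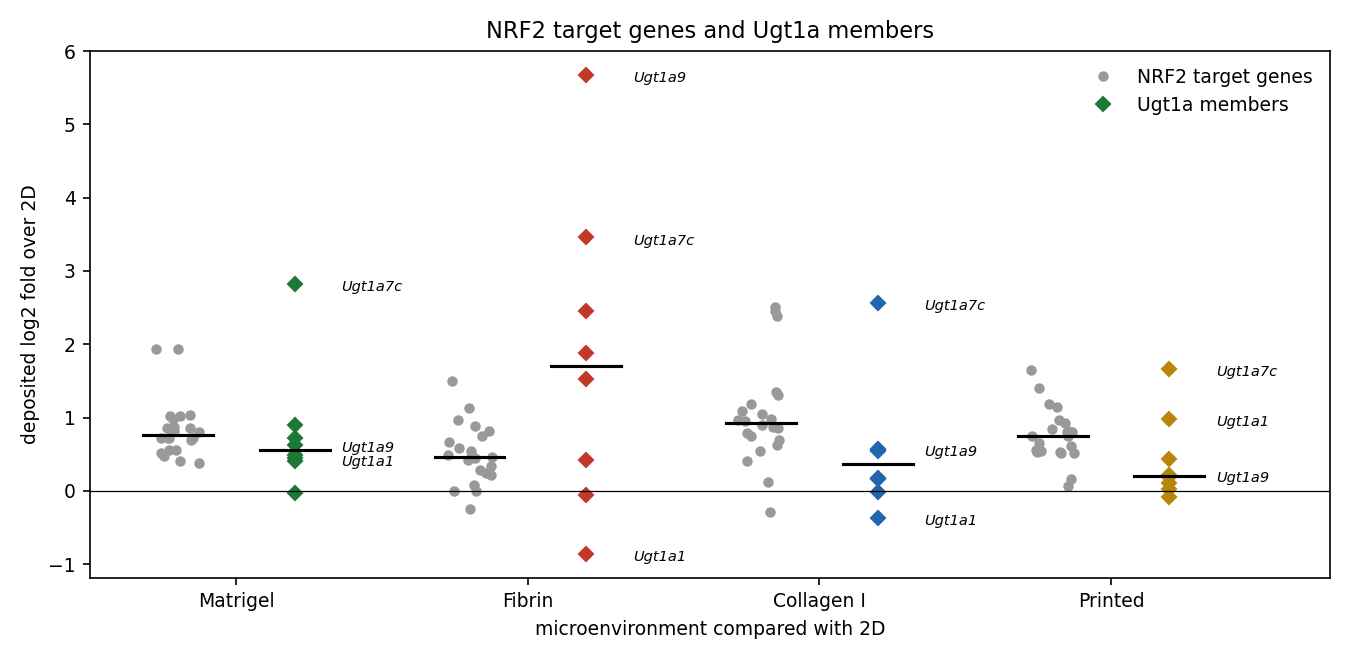
Log2 fold change over 2D from the authors' deposited tables for 22 NRF2 target genes (grey circles) and the 8 Ugt1a members (coloured diamonds) in each gel; lines are medians. NRF2 targets have a median of 0.47 in fibrin and 0.93 in collagen I, and the Ugt1a members have 1.70 and 0.36. The member folds are closer to 0 than the ratios of recovered means.

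Of AhR targets, Cyp1a1, a cytochrome that is the receptor's classic target, fell by 1.17 ± 0.40 on the log2 scale (SE) in the authors' deposited table for fibrin (adjusted p = 0.0423). It held 116, 60 and 42 reads in 2D and 2, 28 and 14 in fibrin, without overlap. Its deposited values elsewhere were 0.72 ± 0.29 in Matrigel (adjusted p = 0.138), 0.54 ± 0.39 in collagen I (0.441) and 0.08 ± 0.32 in the printed cultures (0.985). Cyp1b1, another target, held 2, 4 and 4 reads in 2D and 28, 8 and 8 in fibrin, with a deposited value of 0.66 ± 0.38 (adjusted p = 0.340) in the fibrin table. Besides Nqo1, the list's called gene was Gsta1, a glutathione transferase that the NRF2 list also holds, at 2.45 ± 0.40 in the deposited table for collagen I (adjusted p = 1.37e-07) and 1.18 ± 0.32 for the printed cultures (adjusted p = 0.0109).

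Of 21 sensors and regulators of the locus, 15 to 17 had an adjusted p per comparison, and 1 call was made over the 4 comparisons. Foxa2, a pioneer factor of gut, liver and lung, rose by 1.69 ± 0.39 on the log2 scale (SE) in the authors' deposited table for fibrin (adjusted p = 0.000707), from 2, 0 and 0 reads in 2D to 38, 18 and 44. Ahr held 240, 188 and 140 reads in 2D and 250, 134 and 168 in fibrin, and its deposited values were between 0.02 ± 0.29 and 0.36 ± 0.29 over the 4 tables (adjusted p from 0.702 to 0.988).

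The remaining sensors passed no test. Nfe2l2, which encodes NRF2, was between 0.19 ± 0.19 and 0.23 ± 0.20 in the authors' deposited tables (adjusted p from 0.541 to 0.844). Nr1i2, which encodes the drug sensor PXR, was highest in Matrigel at 0.73 ± 0.31 in the deposited table (adjusted p = 0.173), with 68, 48 and 8 reads against 28, 0 and 11 in 2D. Nr1i3, which encodes the related sensor CAR, held 4, 4 and 2 reads in 2D and at most 16 in any gel library. Hnf4a, a liver and proximal tubule factor, was between -0.39 ± 0.19 and 0.23 ± 0.20 in the deposited tables (adjusted p from 0.221 to 0.953), and reads from the introduced copy cannot be told apart from those of the cell's own gene.

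Sulfation, which competes with glucuronidation for phenols, and the breakdown of haem, which yields bilirubin, completed the lists. Of 14 or 15 sulfation and other conjugation genes with an adjusted p, 4 rose in Matrigel and in collagen I, 2 in fibrin and 0 in the printed cultures by DESeq2 (2 at an unadjusted p under 0.05). Papss2, which makes the sulfate donor, rose by 2.65 ± 0.29 on the log2 scale (SE) in the authors' deposited table for Matrigel (adjusted p = 2.52e-17), by 1.91 ± 0.37 for collagen I (adjusted p = 1.87e-05) and by 1.64 ± 0.36 for fibrin (adjusted p = 0.000237). Of 8 genes of haem breakdown and bilirubin handling, 4 rose in collagen I and 2 in each other gel. Slco4a1, an organic anion transporter, led the list in all 4 deposited tables, from 1.05 ± 0.21 in Matrigel (adjusted p = 4.08e-05) to 1.58 ± 0.29 in the printed cultures (adjusted p = 8.68e-06).

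The genes with patterns most like that of Ugt1a9 were sought by Euclidean distance over the 4 deposited log2 fold changes among the 11174 genes whose base mean reached 100 in every table. The nearest were Serpina3g (distance 2.77), Anxa13 (2.91), Alcam (3.21), Cebpd (3.34) and C3 (3.60). None was close: Serpina3g had 2.99 in the authors' deposited table for fibrin, where Ugt1a9 had 5.68. For Ugt1a7c they were Tmem27 (0.98), Pcdh10 (1.09), Anxa13 (1.65), Slc16a6 (1.79) and Icos (1.88), and Tmem27 had 3.13 for fibrin, 2.87 for collagen I, 2.24 for Matrigel and 1.02 for the printed cultures in the deposited tables. Anxa13 was thus on both lists, with 101, 60 and 23 reads in 2D and 1709, 1833 and 1859 in fibrin. The lists depend on the lowest level allowed: with a minimum of 20 the nearest gene to Ugt1a9 was Lbp (distance 1.36), and 2 of the 5 remained, and for Ugt1a7c 3 remained.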

How the data were processed

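RNA of 15 libraries, 5 groups of 3, was sequenced. The submitters' processing notes name DESeq2 1.22.1 for the tests, featureCounts 1.6.3, STAR 2.6.0b-1, Trim Galore 0.4.3, FastQC 0.72 and build mm10. Annotation, strand setting and the model's terms: not given in the sources used here. Deposited by the authors were 4 tables, 1 per gel against 2D, with 0 columns of values per sample. The deposited base mean is a signal, reads divided by size factors and averaged over 6 libraries. The deposited fold change and its standard error are log2 values, the deposited Wald statistic is a score, and the deposited p-values and adjusted p-values are the authors' own.

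The reads per library were recovered here from the base means. The value of 1 read in each library was read off genes with 1 read in a single library, and whole numbers that satisfy all 4 tables at once were found by lattice reduction (sympy 1.14.0, numpy 2.4.6). On simulated data all solved genes up to the level used came back exactly, as did 200 of 200 at the levels of Ugt1a7c. The total depth of a library is unknown. A ratio of recovered means had the sign of the deposited fold in all 31 member values with a ratio and was farther from 0 in all 31. Over 4055 to 4155 genes per comparison, all those past 0.5 on the log2 scale had the same sign.

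A gene was called where the authors' adjusted p was under 0.05. As an alternative, limma 3.58.1 (R 4.3.3) was run on log2(normalised reads + 1) of 10027 genes with a mean of at least 1, with Benjamini-Hochberg adjustment. On simulated data for fibrin against 2D over these 10027 genes it found 41 of 100 genes changed 2-fold and 99 of 100 changed 4-fold, with 7 false calls. The changed genes there had a mean of at least 10 normalised reads, and the same dispersion was set for every gene. Some members were lower or more variable than that, so these rates do not carry over to the members. Other alternatives are in the closing section.

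The members, gene lists and tests were chosen with earlier results of these data known. Some genes are not reported here and were left out of the lists. Named are all members, the highest risen and lowest fallen called genes of each list, 9 fixed sensors, enzymes and targets, neighbours within 250 kb and the 5 genes nearest to Ugt1a9 and Ugt1a7c. Coordinates are from GENCODE M21 and RefSeq, both GRCm38, the build that mm10 names, and promoters are from RefSeq.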

Additional observations from a re-analysis of the deposited data

Results flagged for a closer look

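Ugt1a1 differed in direction between gels. In the authors' deposited tables its log2 fold change over 2D was 0.44 in Matrigel and 0.99 in the printed cultures, with every library above every 2D library in the recovered reads, and -0.86 in fibrin, with every library below. The difference between gels was not tested, because the locus was chosen with these values known.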

How the results depend on the processing

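No paired analysis was possible because the recovered libraries cannot be tied to a passage, although the labels give the groups the same replicate numbers. The calls of members in fibrin, collagen I and the printed cultures stayed within 1.5 times their count under an adjusted p of 0.01, adjustment over every gene with a p-value, a minimum absolute log2 fold of 1 and an empirical null. In Matrigel each of these 4 settings left 1 member, Ugt1a7c, of 2. Of the pathway genes, those called in Matrigel went from 27 to 16 at an adjusted p of 0.01, 7 with the fold minimum and 12 with the empirical null. In fibrin they went from 13 to 7 and 6 with the latter 2 settings, in collagen I from 27 to 15 and 6, and in the printed cultures from 18 to 9 with the fold minimum. A base mean of 10 or more changed no count of pathway genes by over 1.5 times.

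Added after seeing the data, limma on the recovered reads called 3 members in Matrigel, 5 in fibrin, 2 in collagen I and 2 in the printed cultures. Of all 10027 genes it called 236, 707, 891 and 258 in that order. Leaving out each library of a comparison in turn gave 2 to 2, 5 to 6, 1 to 2 and 1 to 3. Calls over all genes then ran from 90 to 481, 324 to 863, 308 to 978 and 127 to 393. Members lost or gained are thus to be read beside a change in calling over all genes. Ugt1a10 was lost in Matrigel without any 1 of its 6 libraries. Ugt1a6a was lost in collagen I without 2D library C or collagen I library B or C, and in the printed cultures without 2D library B or C or any printed library. Ugt1a1 was gained in fibrin without 2D library B, and in the printed cultures without 2D library A or printed library A. Ratios of recovered means moved 20 of 31 member folds by more than 1 standard error, all away from 0, and 0 changed sign. Ratios implied by base means alone, with 2D worked out from the other tables, moved 18 of 30 and turned the sign of 9 that the authors did not call. Centring on the median gene moved none of 32. Levels per kb are printed over own exons. Over the whole exonic length, set as the length to use at the start, 30 of 32 levels differed by more than the spread, and the order of the members within each gel was the same.

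Among Ugt1a9 folds, 2D rests on 11 reads in 3 libraries, which limits every ratio to it. With a minimum base mean of 500, 2 of the 5 nearest genes remained for both Ugt1a9 and Ugt1a7c. Pathway genes above the level at which reads could be recovered were not refitted.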
